A study of Mus musculus with 6 samples.

Results

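Coagulation and fibrinolysis genes were examined in mouse liver as 35 genes: the clotting factors, the brakes on clotting, the enzymes that dissolve clots with their regulators, and the enzymes of the vitamin K cycle. They were taken by symbol from a table of 32597 genes, and all 35 were found. The livers came from male wild-type C57BL/6 mice, an inbred laboratory strain, kept free of specific pathogens and given no treatment in the labels. Young mice are labelled 3 weeks in the titles, 3 to 4 weeks in the age field and 1 month in the series title; adults are labelled 6 months. Each age had 3 libraries, and each library pooled RNA of 3 mice. The deposited values are 1 FPKM per gene and age (fragments per kilobase of transcript and per unit of mapped fragments), which already combines the 3 libraries, so no value below carries a standard deviation. The labels do not say whether the pools were made on separate occasions.

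The liver supplies most of the plasma proteins of clotting. In the cascade, one protease cuts and activates the next until thrombin, made from prothrombin, cuts fibrinogen into fibrin. Antithrombin and the protein C system hold this cascade in check, and plasmin, made from plasminogen, dissolves the fibrin. Several of the proteases bind membranes through glutamates that a vitamin K-dependent carboxylase modifies in the hepatocyte.

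Most of these genes were not called as different between young and adult liver, and the 3 differences that passed the authors' test were less than 2-fold. "Rose" and "fell" are used here of genes for which the authors' deposited table gives a q-value, the p corrected for the number of genes tested, under 0.05. All 35 genes were tested by the authors, and 3 were called: F7, which encodes factor VII, and the carboxylase Ggcx fell, and the urokinase gene Plau rose. Across all genes tested without a minimum level, 6.82% were called. Of the 35 genes, 32 reached 1 FPKM at either age, and the same 3 of these 32 were called (9.38%), against 7.47% of the 11741 genes compared in the same way, of which 3.99% rose and 3.48% fell. The share called was thus near the background. Of the 32, 22 had the lower value in adults, called or not, against 49.5% of all genes compared. F13a1, Plat and Plaur stayed under 1 FPKM at both ages. Another 3, Plau, Procr and Thbd, lay below 1 FPKM in the young and passed the minimum only through their adult value, so they could only be higher in adults. The other 29 reached 1 FPKM at both ages; 2 of them fell and none rose, and all 22 with the lower adult value are among them. Of the 10828 genes of the table at or above 1 FPKM at both ages, 49.7% had the lower value in adults and 6.28% were called.

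**Figure D1:**
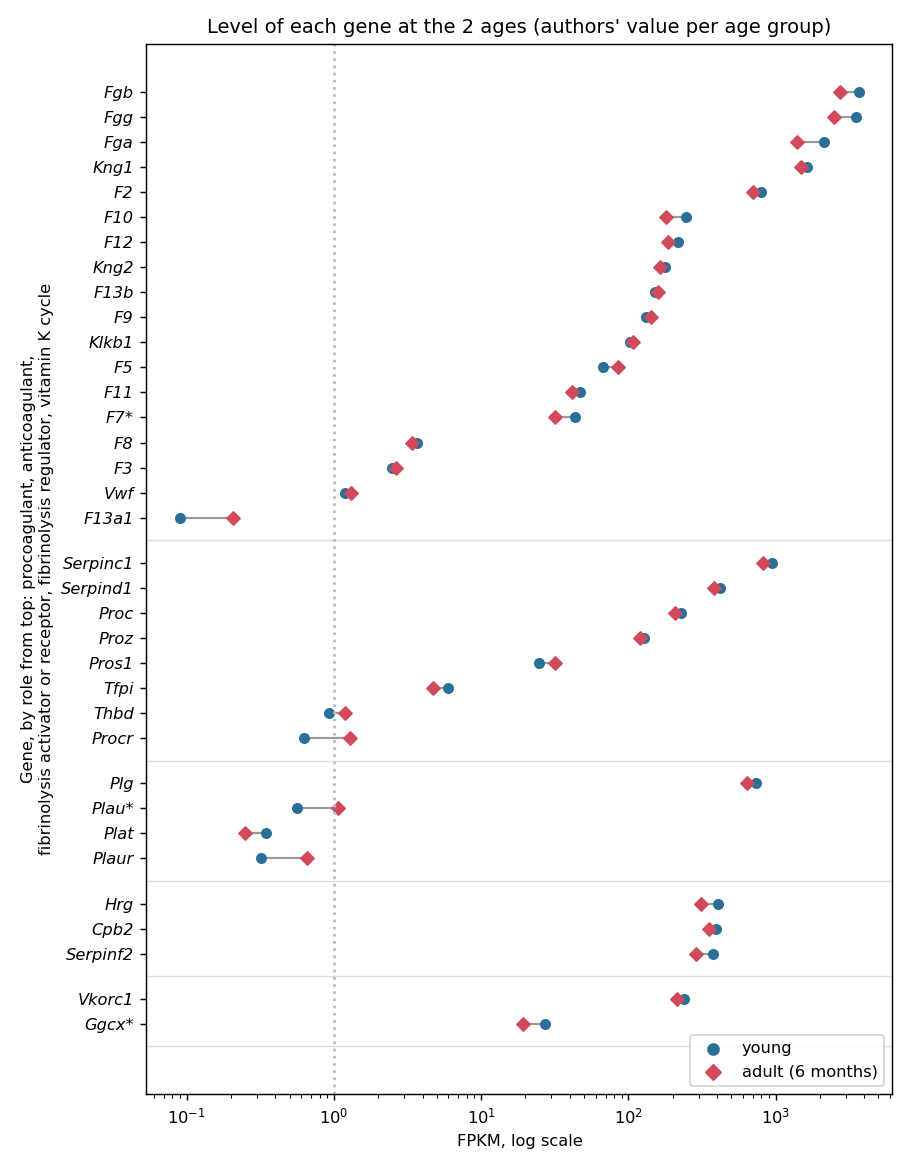
FPKM of each of the 35 genes on a log axis, in young (blue circles) and adult liver (red diamonds), as the authors' single value per age, grouped by role; an asterisk marks a called gene and the dotted line is at 1 FPKM. The fibrinogen genes stand at the top of the range and F13a1 at 0.0905 and 0.207 FPKM at its foot; most pairs of points nearly touch.

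The 3 fibrinogen genes were the most abundant of the set and had lower values in adult liver, but none of them passed the authors' test. They encode the alpha, beta and gamma chains of the protein that forms the clot, and they adjoin on chromosome 3, Fgg at 83007724 to 83015049, Fga at 83026076 to 83033627 and Fgb at 83040141 to 83049863 (GRCm38). Their upstream sequences are shown because the genes lie together and differed between the ages in the same direction. Each line gives the 250 bases before the annotated start, from RefSeq on GRCm38.p6, 5′ to 3′ on the gene's own strand, at chr3:83025903-83026152 (plus strand) for Fga, chr3:83049864-83050113 (minus) for Fgb and chr3:83007474-83007723 (plus) for Fgg. The RefSeq start of Fga lies inside the span that the gene has in the deposited table, so the end of its window, with the match nearest to the start, is within that span. Capitals mark matches, on either strand, to any of the 9 short motifs that were searched.
Fga: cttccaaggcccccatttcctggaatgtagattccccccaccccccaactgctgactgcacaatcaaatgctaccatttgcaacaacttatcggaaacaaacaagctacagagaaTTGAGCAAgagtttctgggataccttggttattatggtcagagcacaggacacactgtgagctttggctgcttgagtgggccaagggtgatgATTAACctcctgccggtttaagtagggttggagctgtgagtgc
Fgb: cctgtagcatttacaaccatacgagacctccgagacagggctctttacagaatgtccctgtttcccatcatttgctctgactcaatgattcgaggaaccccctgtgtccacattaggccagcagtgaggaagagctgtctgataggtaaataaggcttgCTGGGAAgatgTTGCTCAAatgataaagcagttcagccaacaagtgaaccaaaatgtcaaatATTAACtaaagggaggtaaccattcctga
Fgg: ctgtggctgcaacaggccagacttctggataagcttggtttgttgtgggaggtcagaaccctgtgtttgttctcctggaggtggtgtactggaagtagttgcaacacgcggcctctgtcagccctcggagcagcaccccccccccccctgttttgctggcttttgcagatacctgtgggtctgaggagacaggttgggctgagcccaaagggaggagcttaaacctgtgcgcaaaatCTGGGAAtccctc

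The capitals in Fga and Fgb include GTTAAT, read here on the opposite strand, the core of the site bound by the hepatocyte factor HNF1. This match lies at -43 to -38 before the start in Fga and at -29 to -24 in Fgb, counted from the RefSeq start, and the motif occurs in 6.43% of the 32851 promoter windows of the same length. The other capitals are TTGCNNAA, a core of the C/EBP site, in Fga and Fgb (in 9.56% of all windows), and CTGGGAA, the core of the interleukin-6 response element, in Fgb and Fgg (in 9.10%). TTGCNNAA was present before 10 of the 28 coagulation genes with a window (35.7%). This share counts genes with a match in any of their windows, while the 9.56% counts single windows, so the 2 are not like for like. The motif was singled out of the 9 after the shares were seen, and the share was not tested. No 2 of the matches shown overlap. A match describes letters only and shows no binding.

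Fgb was at 3666 FPKM in the young and 2740 in the adult liver (q = 0.448 in the authors' deposited table). Fgg was at 3536 and 2485 FPKM (q = 0.215 in the authors' deposited table). Fga was at 2121 and 1406 FPKM (q = 0.127 in the authors' deposited table). All 3 chains were thus lower in adults by between 25.2% and 33.7%, a difference that did not pass the authors' adjusted test, although the unadjusted p in the authors' deposited table was 0.00955 for Fga and 0.0203 for Fgg. On the log2 scale with 1 FPKM added, the differences were -0.42 for Fgb, -0.51 for Fgg and -0.59 for Fga, and the last was the lowest of the 32 genes compared. Fgb ranked 26th and Fga 42nd among all genes of the young liver, and 36th and 62nd in the adult. Together the chains held 1.22% of the summed FPKM of all genes in young and 0.866% in adult liver. These ranks and shares leave out the albumin gene Alb, which is listed at 0 at both ages with the status LOWDATA. The fibrinogen protein holds its chains in equal number. The FPKM of Fga was 0.579 of that of Fgb in young and 0.513 in adult liver, and that of Fgg was 0.965 and 0.907 of it.

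The calls among other genes of this level stand beside these values. Among the 91 genes of the table with a mean of 1000 FPKM or more, the smallest log2 difference that was called was 0.81 in size. Leaving out the coagulation genes, 8 genes of this level had a difference of 0.4 to 0.6 in size and 0 of them were called, while at 20 to 100 FPKM 29.9% of the 157 genes with differences of that size were called. The count of 8 is small. The missing call for the fibrinogen genes does not show equal levels.

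Of the vitamin K-dependent procoagulant proteases, F7 fell, and its neighbour F10 had an almost equal difference that was not called. Factor VII starts the cascade together with tissue factor. F7, on chromosome 8 at 13026034 to 13035809, was at 43.7 FPKM in the young and 31.6 in the adult liver, 0.724 of the young level, a log2 difference of -0.45 (q = 0.0490 in the authors' deposited table). F10 encodes factor X, the protease that makes thrombin, and starts on the same strand at 13037308; it was at 247 and 179.7 FPKM, 0.727 of the young level, a log2 difference of -0.46 (q = 0.0820 in the authors' deposited table). The 2 genes therefore lie on either side of the threshold with nearly the same ratio, and F7 is close to it. The ratio of F10 to F7 in FPKM was 5.65 in young and 5.68 in adult liver. F2, the prothrombin gene, was at 792 and 707 FPKM (q = 0.888 in the authors' deposited table). F9, which encodes the factor missing in haemophilia B, was at 133 and 143 FPKM (q = 0.9496 in the authors' deposited table). These last genes had small differences in opposite directions and neither was called.

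The 250 bases before the start of F7, at chr8:13025784-13026033 (plus strand), are given because F7 is the clotting factor that was called; of the 9 motifs only CCAAT matched (capitals), which is found in 33.8% of all windows.
F7: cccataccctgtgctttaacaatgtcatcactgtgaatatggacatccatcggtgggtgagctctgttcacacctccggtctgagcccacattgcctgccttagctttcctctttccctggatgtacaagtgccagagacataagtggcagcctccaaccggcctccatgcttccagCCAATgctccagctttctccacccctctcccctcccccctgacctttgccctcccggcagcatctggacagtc

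Of the 4 cofactors and carriers, 3 had higher values in adults, and none was called. F5, the cofactor that speeds thrombin formation by factor X, was at 67.4 FPKM in the young and 85.3 in the adult liver (unadjusted p = 0.0398 and q = 0.328 in the authors' deposited table). With a log2 difference of 0.33 it was the highest of the 17 procoagulant genes compared, though not called. F8, the cofactor missing in haemophilia A and made mainly by endothelial cells, was at 3.69 and 3.37 FPKM. Vwf, which carries factor VIII in plasma and binds platelets, was at 1.19 and 1.31 FPKM. F3, tissue factor, was at 2.50 and 2.65 FPKM. In the authors' deposited table the q-values of these 3 low genes lay between 0.964 and 0.997.

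None of the 5 contact system genes was called or had an unadjusted p under 0.05 in the authors' deposited table, and 4 had slightly lower values in adults. Kng1 and Kng2 encode kininogens, the precursors of bradykinin; Kng1 was at 1628 FPKM in the young and 1491 in the adult liver, and Kng2 was at 177 and 165. The prekallikrein gene Klkb1 was at 102 and 108 FPKM. F12, whose product starts the contact pathway, was at 218 and 187 FPKM, and F11, which encodes the protease it activates, was at 46.8 and 41.6. Log2 differences in this group ran from -0.22 to 0.08. The clot-crosslinking factor XIII has a carrier subunit made by hepatocytes, F13b, which was at 151 and 158 FPKM. Its enzyme subunit F13a1, made by macrophages and megakaryocytes, was at 0.0905 and 0.207 FPKM (q = 0.0718 in the authors' deposited table).

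No anticoagulant gene was called among the 8 compared, and 2, Pros1 and Procr, had an unadjusted p under 0.05 in the authors' deposited table. The most abundant was Serpinc1, which encodes antithrombin, the main inhibitor of thrombin and factor X, at 949.9 FPKM in the young and 826 in the adult liver. Serpind1, heparin cofactor II, was at 419 and 380 FPKM. Proc, the gene of protein C, which as a protease cuts activated factors V and VIII, was at 228 and 209 FPKM, and Proz, whose product helps a serpin to inhibit factor X, was at 127 and 119. These 4 hepatocyte products had slightly lower values in adults, Serpinc1 the most at 0.870 of its young level, and in the authors' deposited table their q-values lay between 0.808 and 0.972. Pros1, the cofactor of protein C, differed the other way, from 24.8 to 31.6 FPKM (unadjusted p = 0.0394 and q = 0.326 in the authors' deposited table). The F5 and Pros1 values were thus both higher in adults by 26.5% and 27.2%, and neither was called.

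The anticoagulants that sit on the vessel wall were far less abundant. Procr, the endothelial receptor for protein C, was at 0.631 FPKM in the young and 1.28 in the adult liver, 2.03 times the young level (q = 0.0512 in the authors' deposited table). It was the only one of the 32 genes compared with a 2-fold difference, and it just missed the threshold. Thbd, thrombomodulin, which turns thrombin into an activator of protein C, was at 0.927 and 1.19 FPKM, and Tfpi, the inhibitor of the tissue factor pathway, was at 5.92 and 4.73. Neither Thbd nor Tfpi was called, with q-values of 0.626 and 0.743 in the authors' deposited table.

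In the fibrinolytic system Plau rose, at a low level, and the abundant genes were not called. Plau, on chromosome 14 at 20836662 to 20843388, encodes urokinase, which cuts plasminogen into plasmin. It was at 0.565 FPKM in the young and 1.06 in the adult liver, 1.88 times the young level (q = 0.0460 in the authors' deposited table). Plaur, the receptor that holds urokinase at the cell surface, was at 0.318 and 0.660 FPKM, 2.07 times the young level (q = 0.0831 in the authors' deposited table). Both genes of the urokinase pair thus had about double the value in adults at very low abundance, and the depth of the single libraries behind such values is not given. Plat, the tissue-type plasminogen activator, was at 0.347 and 0.2495 FPKM (q = 0.672 in the authors' deposited table). Plg itself, the plasminogen gene, was at 735 and 636 FPKM (q = 0.793 in the authors' deposited table).

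The 3 fibrinolysis regulators had lower values in adults without being called. Serpinf2, which encodes the main plasmin inhibitor, was at 378 FPKM in the young and 287 in the adult liver (unadjusted p = 0.0180 and q = 0.197 in the authors' deposited table). Hrg, a histidine-rich plasma protein that binds plasminogen and heparin, was at 405 and 312 FPKM (unadjusted p = 0.0190 and q = 0.204 in the authors' deposited table). Cpb2, a carboxypeptidase that shields fibrin from plasmin, was at 392 and 351 FPKM (q = 0.848 in the authors' deposited table). Serpinf2 and Hrg differed by 24.0% and 23.0%, about as much as Fgb. The FPKM of Plg was 1.95 times that of Serpinf2 in young and 2.21 times in adult liver.

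In the vitamin K cycle, the carboxylase gene Ggcx fell and the reductase gene Vkorc1 was not called. Ggcx, on chromosome 6 at 72414308 to 72430712, encodes the enzyme that modifies the vitamin K-dependent proteins. It was at 27.3 FPKM in the young and 19.3 in the adult liver, 0.707 of the young level, a log2 difference of -0.48 (q = 0.0269 in the authors' deposited table), and this q-value was the lowest of the 35. Vkorc1, which regenerates the vitamin and is the target of warfarin, was at 240 and 215 FPKM (q = 0.856 in the authors' deposited table). Of the 7 proteins that need this modification (F2, F7, F9, F10, Proc, Pros1 and Proz), F7 was the only one called, and the values of 5 were lower and of 2 higher in adults. The window before the Ggcx start, at chr6:72414058-72414307 (plus strand), is shown as that of the other fallen gene; of the motifs it held TTGCNNAA, on the opposite strand (capitals).
Ggcx: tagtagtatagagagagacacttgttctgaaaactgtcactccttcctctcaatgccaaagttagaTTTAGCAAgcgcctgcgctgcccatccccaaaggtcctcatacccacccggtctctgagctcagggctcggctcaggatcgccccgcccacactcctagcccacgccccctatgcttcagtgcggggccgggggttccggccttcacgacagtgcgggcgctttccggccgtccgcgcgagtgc

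Set side by side, the procoagulant and anticoagulant genes had nearly the same median difference. The median log2 difference was -0.13 over the 17 procoagulant genes compared, -0.11 over the 8 anticoagulants, of which Procr and Thbd could only be higher, -0.38 over the 3 fibrinolysis regulators and -0.32 over the 2 vitamin K enzymes. Over all 11741 genes compared it was 0.0033. The 2 compared activators and receptors of fibrinolysis, Plg and Plau, were at -0.21 and 0.40, and Plau could only be higher. No difference between the groups was tested. The summed level of the procoagulant genes was 12935 FPKM in the young and 9935 in the adult liver, that of the anticoagulants 1756 and 1573. The ratio of these sums was 7.37 and 6.32, but without the fibrinogen chains it was 2.06 and 2.10, so the difference in this ratio lay in fibrinogen. For the enzyme and inhibitor pair of prothrombin and antithrombin, the FPKM ratio of F2 to Serpinc1 was 0.833 and 0.855.

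**Figure D2:**
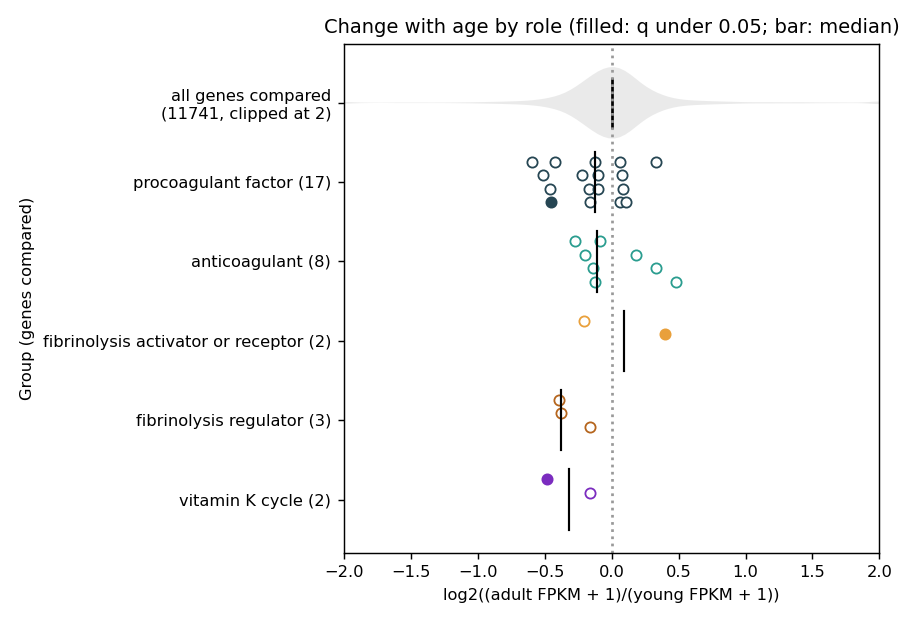
Log2 difference between adult and young FPKM, with 1 added to each, for each compared gene by role (circles, filled where called) with the group median (bar), beside the distribution over all genes compared (grey, clipped at 2 in either direction). Procoagulant values run from -0.59 to 0.33 and anticoagulant values from -0.27 to 0.48, overlapping over most of their range.

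Unadjusted p-values in the authors' deposited table were under 0.05 for 11 of the 32 genes compared (34.4%), against 16.1% of all genes compared. Of these 11, 7 had lower values in adults (Fga, Fgg, F7, F10, Serpinf2, Hrg and Ggcx) and 4 had higher ones (F5, Pros1, Plau and Procr). Plau and Procr passed the minimum only through their adult value and could only be higher, so their direction is no result. The 34.4% includes both genes. F5 and Pros1, which reached 1 FPKM at both ages, were also higher in adults. Of the 11, 8 did not pass the adjusted threshold. At a looser q of 0.1, F10 and Procr would join the 3 called genes, or 5 of 32 against 9.07% of all genes compared.

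The share of genes with the lower value in adults differed between levels of expression. It was 47.4% of the 8263 genes with a mean of 1 to 20 FPKM and 51.9% of the 2230 at 20 to 100. At 100 to 1000 FPKM, 64.8% of the 806 genes of the table had the lower value in adults, as did 13 of the 16 coagulation genes of that level; at 1000 FPKM or more it was 58.2% of 91 genes and all 4 coagulation genes. The median log2 difference at 100 to 1000 FPKM was -0.09 over all genes and -0.16 over the coagulation genes. At 1000 FPKM or more these medians were -0.08 and -0.46, and the latter rests on the fibrinogen genes and Kng1. The part that abundance has in the lower values of the coagulation genes was not tested.

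**Figure D3:**
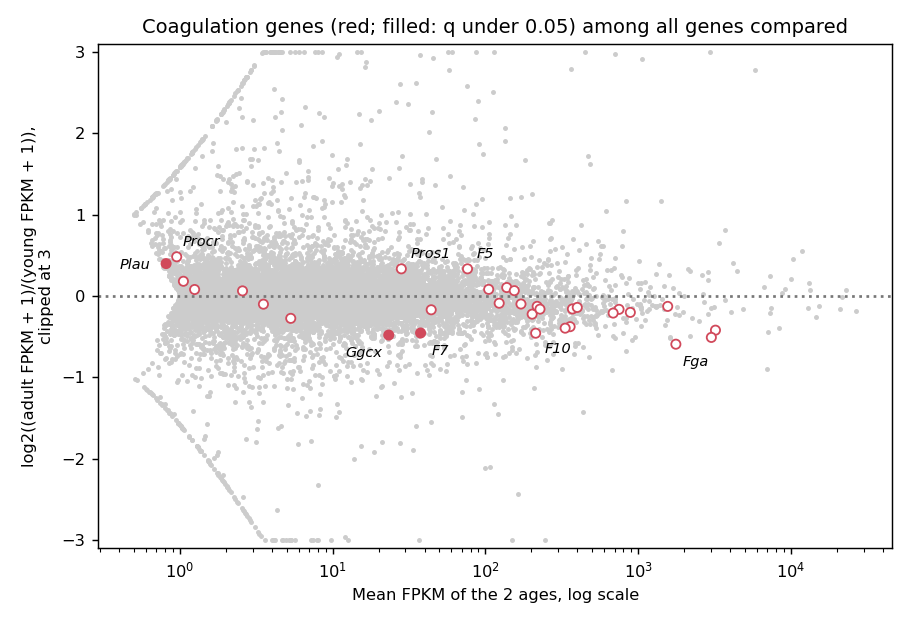
Log2 difference between adult and young FPKM, with 1 added to each and clipped at 3, against the mean FPKM on a log axis, for all genes compared (grey) and the 32 coagulation genes (red, filled where called). The fibrinogen genes lie to the right and below 0, with Fga lowest at -0.59, while Plau and Procr lie above 0 at the left edge.

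The genes split by abundance along their textbook source. The 23 plasma proteins known as hepatocyte products ran from 24.8 to 3666 FPKM in young and from 31.6 to 2740 in adult liver, and 18 of them had the lower value in adults. Of these 23, 14 differed by less than 20% between the ages. The 10 genes known from endothelial, stromal or blood cells ran from 0.0905 to 5.92 FPKM in young and from 0.207 to 4.73 in adult liver. In whole liver, fewer cells of a type and less RNA per cell cannot be told apart. The tissue label was matched by its defining markers: the 11 hepatocyte markers summed to 43215 FPKM in the young and 34275 in the adult liver, with 1 of the 10 compared fallen, Ahsg, from 9035 to 4860 FPKM, and Alb listed at 0 at both ages with the status LOWDATA, so that it had no usable value. Of the 10 hepatocyte markers compared, 7 had lower values in adults and 3 higher ones, Pck1, Apob and Asgr1. The hepatocyte markers' median log2 difference was -0.18, against -0.16 for the 23 hepatocyte products of the clotting system.

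Markers of other cells moved in several directions beside the low genes. All 13 endothelial markers had lower values in adults and 3 of them fell, Lyve1, Oit3 and Gpr182; their sum was 147 FPKM in the young and 118 in the adult liver. The coagulation genes known from endothelial cells were mixed and none of them was called: F8, Tfpi and Plat had lower values in adults, and Vwf, Procr and Thbd higher ones, of which Procr and Thbd could only be higher. Of 10 Kupffer cell and macrophage markers, 2 rose, Marco and Cd5l, and none fell, with a sum of 390.1 and 453 FPKM. Called or not, 6 had higher values in adults and 4 lower ones, among the latter Clec4f at 79.6 and 57.7 FPKM. Of 7 neutrophil and monocyte markers compared, 2 rose, Ccr2 and Lyz2. The list summed to 107 and 139.8 FPKM, of which Lyz2 alone held 82.8 and 115. S100a8 and Ly6g had lower values in adults and the other 5 compared had higher ones. Among those 5, Ccr2 and Csf3r lay below 1 FPKM in the young and could only be higher. All 3 T and NK cell markers compared rose, with a sum over the 8 markers of 3.46 and 15.4 FPKM; these 3 lay below 1 FPKM in the young and could only be higher. Of 10 stellate cell and fibroblast markers 3 fell, Col3a1, Col1a2 and Lum, and the list summed to 188 and 163 FPKM. All 5 mesothelial markers compared fell, and the 7 of the list summed to 17.3 and 5.21 FPKM; of the 5, Upk1b and Krt19 lay below 1 FPKM in the adult and could only be lower. The part of any of these cells in the values of Plau, Plaur, Procr and F13a1 was not tested.

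Most members that adjoin on a chromosome had differences of like sign, with exceptions. Groups of members under 100 kb apart were the fibrinogen genes on chromosome 3, Hrg, Kng2 and Kng1 on chromosome 16, and both F7, F10 and Proz, and F11 and Klkb1, on chromosome 8. In the group on chromosome 16, Hrg had a log2 difference of -0.38 and the kininogen genes of -0.10 and -0.13. In the F7 group, Proz was at -0.09 while F7 and F10 were at -0.45 and -0.46. F11 and Klkb1, which encode related proteases, were at -0.17 and 0.08. The nearest compared genes outside the fibrinogen group were Lrat at -0.31 and Plrg1 at -0.04, neither called.

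**Figure D4:**
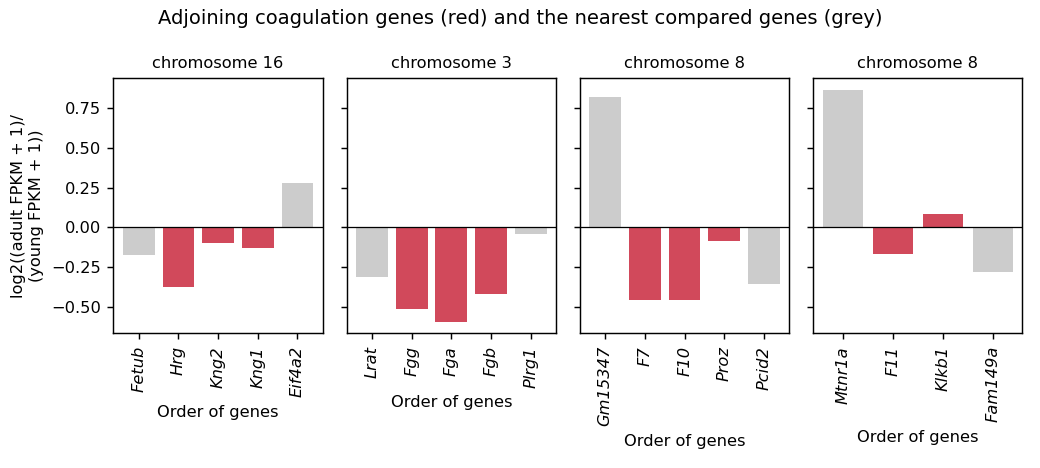
Log2 difference between adult and young FPKM, with 1 added to each, for the 4 groups of adjoining coagulation genes (red) and the nearest non-overlapping compared gene on either side (grey), in chromosomal order. The fibrinogen genes are all at -0.42 or lower, and Proz at -0.09 stands apart from F7 and F10 beside it.

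Among 47 other genes of clotting, fibrinolysis and their control, 36 were compared; 2 of these rose and none fell, with a median log2 difference of -0.11. Serpine2, which encodes an inhibitor of thrombin and urokinase, rose from 0.789 to 8.56 FPKM, and the prothrombinase-like gene Fgl2 rose from 2.30 to 4.03 (q = 0.00189 for either gene in the authors' deposited table). Serpine2 passed the minimum only through its adult value. Under the minimum at both ages, the protease inhibitor A2m was at 0.129 and 0.0312 FPKM and was called (q = 0.0134 in the authors' deposited table). The genes with the highest level in this list were not called: Apoh was at 2088 and 1823 FPKM, Pzp at 1645 and 1755, Serpina1a at 1227 and 1002, and C4bp, which binds protein S in plasma, at 568 and 651.

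Fibrinogen is also an acute phase protein, and 14 of the 20 acute phase genes compared had higher values in adults. Of 22 genes of the interleukin-6 type acute phase response, 20 were compared; 7 rose and none fell, with a median log2 difference of 0.19. The 6 with lower values in adults were Serpina3n, Apcs, Itih4, Lbp, Itih3 and Cp, with log2 differences from -0.43 to -0.13. Saa2 rose from 30.2 to 141 FPKM, Socs3 from 1.57 to 6.03, Saa1 from 85.8 to 276 and Saa3 from 13.2 to 41.4 (q = 0.00189 for each of these in the authors' deposited table). The most abundant genes of the list were not called: Hpx was at 3960 and 4901 FPKM and Hp at 2378 and 2856. These 2 genes were chosen for their level after their values were seen.

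Some of the levels rest on reads that other genes could share. Of the 35 genes, 6 share over 10% of their 50-base words with transcripts of another gene in GENCODE M21, an annotation of GRCm38, so their split is uncertain. Vkorc1 shares 44.7% with the overlapping Gm21974, Klkb1 42.7% with Gm45753, Serpinc1 33.1% with Zbtb37 on the opposite strand, Kng2 19.4% with Kng1, Kng1 17.2% with Kng2, and Plg 10.2% with Slc22a3. The identifier that the deposited table names Klkb1 belongs in GENCODE M21 to Gm45753, which overlaps both Klkb1 and Cyp4v3, so the Klkb1 value may hold reads of both. The sources used here do not state whether strand was kept. F7 and Plau share no such word, and Ggcx shares 0.0568% of its words.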

How the data were processed

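Liver RNA of 3 young and 3 adult libraries, each a pool of 3 mice, was extracted with Trizol at an RNA integrity number of 8 or more and sequenced to about 30000000 reads on average, per the labels' protocols. GRCm38, TopHat2 2.0.11, Cufflinks 2.2.1 and Cuffdiff are listed in the submitters' processing notes. The authors deposited 1 FPKM value per gene and age, a log2 ratio and a test score, and the p-value and q-value of their own comparison, per the file headers; the ratio score was used only as a check. Neither the annotation nor the normalization is stated in the sources used here. The deposited table has no value per library, so depth per value is unknown and no test over libraries was made; the authors' q-value, which rests on pools of mice, gives the only replicate error, and nothing says whether the spread between the 3 libraries is more than technical.

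Log2 differences were computed as log2((adult FPKM + 1)/(young FPKM + 1)), which understates the change of low genes, with Python 3.11.15 and pandas 2.3.3. Genes were compared where the authors' status was OK and FPKM was at least 1 at either age. Calls used q under 0.05 over the whole table. The members, roles and lists were chosen with earlier results of these data known. Every gene of the set is given; of other clotting genes those called and the 4 highest are named, and of other lists up to 4 called genes with the largest difference, or the 2 highest where none was called; some genes that this rule names are not reported here. Upstream sequences came from RefSeq on GRCm38.p6, where 28 of the 35 genes matched; the motifs searched were GTTAAT (HNF1), AAAGTCCA (HNF4), CTGGGAA (interleukin-6 response), TTGCNNAA (C/EBP), TGTTTAC (FOXA), TTATGNAA (D-box), CACGTG (E-box), CCAAT and TATAAA, on both strands. The arithmetic of calls and medians was checked on a simulated table with planted changes, which does not test the authors' q-values. Alternatives tried were other minimum levels, pseudocounts, thresholds, a Benjamini-Hochberg adjustment of the authors' p-values, centring, and leaving out genes that share reads.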

Additional observations from a re-analysis of the deposited data

How the results depend on the processing

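F7, Ggcx and Plau were the called genes also with no minimum level, after centring on the median of all genes and without Kng1 and Kng2. The same held without the 6 genes that share reads, an alternative chosen after seeing the data. None of these alternatives could have removed a call. The authors' q-values were not recomputed, centring shifts only the log2 differences, and the genes left out had not been called. With a minimum of 5 FPKM, F7 and Ggcx were called and 0 rose, since Plau was no longer compared. At q under 0.01, 0 of the 32 genes were called (0 rose and 0 fell). An unadjusted p under 0.05 in the authors' deposited table was found for 11 of them (34.4%), against 16.1% of all genes compared. At q under 0.1, 5 were called, with Procr (2 rose in all) and F10 added, against 9.07% of all genes compared. With a Benjamini-Hochberg adjustment of the authors' p-values over all tested genes, 2 rose, as Procr joined Plau at 0.0408. The median of the 2 fibrinolysis activators was -0.21 at a minimum of 5 FPKM, 0.30 with a pseudocount of 0.1 and 0.35 with none, against 0.09, because it rests on Plg and the low gene Plau. The other medians moved by less than 0.1 under the alternatives run, and summed levels moved by less than 1 percentage point as shares of all FPKM. No library could be left out, and no paired analysis was possible because the table holds 1 value per age group. Precision is limited by the pooled values and the unknown depth per library.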

Other observations

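Liver transcription factors, some of them known to drive clotting genes, were mostly not called. Of the 27 listed and compared, 4 rose and 2 fell, a larger share than the 7.47% called among all genes compared. Their median log2 difference was 0.08. Hnf4a was at 106 FPKM in the young and 112 in the adult liver, Cebpa at 77.7 and 89.96 and the bile acid receptor gene Nr1h4, which in human hepatocytes acts on fibrinogen genes, at 53.3 and 57.8; these 3 were chosen for their level after their values were seen. Among the called genes were Dbp, which rose from 0.756 to 15.3 FPKM, Nr1d1, which rose from 6.89 to 17.3, and the estrogen receptor gene Esr1, which fell from 5.22 to 2.50. Dbp passed the minimum only through its adult value.

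Platelet and megakaryocyte markers were low at both ages. Of the 11 listed, 3 reached 1 FPKM at either age and none of these was called, with Pf4 at 2.49 FPKM in the young and 1.22 in the adult liver and Itga2b at 1.52 and 1.45. The list summed to 6.66 FPKM in the young and 4.43 in the adult liver. Itgb3, under the minimum, was at 0.784 and 0.347 FPKM and was called (q = 0.00494 in the authors' deposited table).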
